A study of Mus musculus with 2 samples.

Results

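Neutrophils, the granulocytes that are first to enter injured or infected tissue, were taken from droplet-based single-cell RNA sequencing of whole mouse pituitary glands as the barcodes in which S100a8 and S100a9 took at least 1% of the UMIs (unique molecular identifiers, which count captured transcripts). A neutrophil barcode also had at least 2000 UMIs, at least 500 genes, a mitochondrial share of 15% or less and no more than 5 UMIs of the macrophage genes C1qa, C1qb and C1qc together. This choice gave 80 neutrophils of 18993 kept barcodes, 29 of 9210 in the young and 51 of 9783 in the old library. Glands came from male C57BL/6 mice, an inbred laboratory strain with no added allele or treatment named, at 2 months (young) and 20 months (old) of age. Each library was 1 pool of 10 glands, dissociated with a kit and cleared of erythrocytes by lysis. With 1 library per age no difference between ages could be tested, each value has no replicate check, and the 95% intervals given are for counting error only. S100a8 and S100a9 were used to choose the cells, so their levels are a description and support nothing.

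Neutrophils are made in the bone marrow, where the proteins of their granules are produced in waves. Azurophil granule genes such as Mpo and Elane are active first, at the promyelocyte stage. Genes of the specific granules, among them Camp, Ngp, Ltf and Lcn2, follow in myelocytes and metamyelocytes under the transcription factor C/EBP-epsilon, encoded by Cebpe. Mature cells in blood have shut these genes off, and carry receptors for chemokines (Cxcr2) and for granulocyte colony-stimulating factor (Csf3r). Activated cells in tissue make interleukin 1 beta (Il1b) and the chemokine Cxcl2.

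The specific granule genes Camp (a cathelicidin), Ngp (neutrophilic granule protein) and Ltf (lactoferrin, which binds iron) carried the largest contrast among the neutrophils, and the 250 bases before each start site are shown because the 3 genes were found together in the same barcodes. All 3 lie on chromosome 9. The sequences are those of RefSeq on build GRCm38.p6, which is not the build of the expression data, and are printed 5' to 3' on the gene's own strand. Windows are chr9:109849457-109849706 on the minus strand for Camp, chr9:110419558-110419807 on the plus strand for Ngp and chr9:111019042-111019291 on the plus strand for Ltf. Capitals mark each match, on either strand, to TTNNGNAA, a loose form of the site read by C/EBP factors.
Camp: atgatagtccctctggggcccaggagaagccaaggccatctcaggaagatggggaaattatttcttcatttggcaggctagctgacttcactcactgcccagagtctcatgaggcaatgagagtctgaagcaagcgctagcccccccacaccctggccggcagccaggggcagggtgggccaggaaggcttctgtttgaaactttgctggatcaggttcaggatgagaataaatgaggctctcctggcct
Ngp: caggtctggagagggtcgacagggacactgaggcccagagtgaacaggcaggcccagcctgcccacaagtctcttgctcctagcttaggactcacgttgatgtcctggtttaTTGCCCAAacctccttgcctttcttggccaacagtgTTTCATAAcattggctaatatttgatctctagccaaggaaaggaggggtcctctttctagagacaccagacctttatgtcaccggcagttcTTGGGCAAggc
Ltf: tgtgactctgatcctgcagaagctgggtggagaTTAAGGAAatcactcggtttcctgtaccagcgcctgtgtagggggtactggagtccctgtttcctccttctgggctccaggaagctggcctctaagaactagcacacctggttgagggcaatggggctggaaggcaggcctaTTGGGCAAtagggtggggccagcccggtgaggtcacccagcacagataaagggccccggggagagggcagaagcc
The Ngp window held 3 matches, the Ltf window 2 and the Camp window 0. The motif is short, and 12104 of 32851 mouse promoter windows of this length (36.8%) held at least 1 match, so a match is a description and not a binding site.

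The young library held 154510099 UMIs and the old library 138427393, with medians of 6585 and 3240 UMIs per kept barcode. Free RNA is the background of every value here. In empty droplets, meaning barcodes with 100 UMIs or fewer, 7 pituitary hormone genes took 42.3% of young and 34.5% of old UMIs. S100a8 with S100a9 took 0.00573% and 0.0664%. Summed over barcodes, the hormone genes took 13.03% of the UMIs of young and 18.8% of those of old neutrophils. If all of these hormone UMIs came from the profile of empty droplets, that profile would make up 30.8% of young and 54.6% of old neutrophil UMIs. These are pooled values. Per barcode the median hormone share was 9.99% in young and 8.03% in old neutrophils, which is the other order. The highest barcodes held 41.5% and 44.1%, the latter above the share in old empty droplets. The part of free RNA in the differences between ages was not tested. Barcode sequences found in both libraries numbered 31 among kept barcodes and 0 among neutrophils, while 2 young kept barcodes shared a sequence with an old neutrophil.

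The chosen barcodes carried the wider neutrophil programme in both libraries. All 18 other neutrophil markers had at least 1 UMI in young neutrophils, and 17 of 18 in old ones, where Camp was at 0. Ngp and Ltf had only 2 and 1 UMIs in old neutrophils, under the precision limit of 3 UMIs. In young neutrophils Camp, Ngp and Ltf lay in only 3 of 29 barcodes. Levels are given as CPM, a gene's UMIs per 1000000 after the 7 hormone and 13 mitochondrial genes were set aside. Csf3r was at 775 CPM in young and 915 CPM in old neutrophils, with a UMI in 28 of 29 and 50 of 51 barcodes. Retnlg, which encodes a secreted resistin-like protein of granulocytes, was at 2985 and 4924 CPM. Cxcr2 was at 486 and 548 CPM. Each of these 3 genes was far above its level in empty droplets, which was highest for Retnlg in the old library at 67.2 CPM. Retnlg was 1.65-fold higher (1.49 to 1.83) in old neutrophils, and 1.07-fold (0.969 to 1.19) without 3 young barcodes described further on.

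Thinned to 2000 UMIs per barcode, which left out no neutrophil, Csf3r was seen in 79.3% (60.3 to 92.0) of young and 84.3% (71.4 to 93.0) of old neutrophils, against 0 of 182 and 0 of 187 lymphocyte barcodes, which should lack it. Without thinning the Csf3r shares were 96.6% and 98.0%, and again 0 in lymphocyte barcodes. Cxcr2 was seen after thinning in 55.2% and 62.7% of neutrophils (82.8% and 86.3% without thinning) and in 0 lymphocyte barcodes of either library. Median depths were 3257 and 4506 UMIs for young and old neutrophils and 3599 and 5545 for lymphocyte barcodes. Lymphocyte barcodes had at least 5 UMIs of Cd3d, Cd3e, Cd3g, Cd79a and Cd79b, the chains of T and B cell receptors.

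Among markers of other cell types, those of non-myeloid cells had few UMIs, apart from hormone genes, haemoglobin and Lcn2. No young neutrophil held a UMI of 7 natural killer cell genes or of 5 platelet genes, and old neutrophils held 2 and 1. Endothelial genes had 3 and 8 UMIs, fibroblast genes 4 and 7, T cell genes 3 and 8 and mast cell or basophil genes 5 and 4. Of 12 monocyte genes, 8 had UMIs in young neutrophils (516 UMIs, of which 343 were Chil3) and 7 in old ones (260 UMIs), summing to 3176 and 823 CPM against 8084 and 7883 CPM in monocyte barcodes. Ccr2, F13a1 and Fn1 were at 0 in both libraries. The 7 pituitary stem cell genes had 844 and 335 UMIs, of which 815 and 310 were Lcn2, a gene of both lists. The 6 erythroid genes had 1504 and 3893 UMIs, of which 1468 and 3793 lay in 1 barcode each. Macrophage genes had 52 UMIs over young and 356 over old neutrophils, and 109 of the latter lay in 1 barcode. B cell genes had 9 and 49 UMIs, with 27 of the latter in 1 barcode. The 6 pan-leukocyte genes, with Ptprc (CD45) among them, reached at least 5 UMIs in all 29 and all 51 neutrophils.

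Set beside monocyte barcodes, the nearest blood cell type, neutrophils had the following leading genes, of which S100a8 and S100a9 were fixed by the choice of cells. Monocyte barcodes were 51 young and 34 old barcodes with Lyz2 and Plac8 together at 0.5% of UMIs or more, S100a8 and S100a9 under 1%, at most 5 C1q UMIs and at most 2 UMIs of the lymphocyte genes. The 15 genes with the highest ratio over them in the lower of both libraries were Stfa2l1, Lcn2, S100a9, Retnlg, S100a8, Wfdc21, Cxcr2, Mmp9, G0s2, Lrg1, Cstdc4, Il1f9, Hdc, Slc2a3 and Rdh12. Retnlg, Stfa2l1 (a stefin that inhibits cysteine proteases), Wfdc21, Cxcr2, Mmp9 (gelatinase B), Lrg1, Cstdc4 and Il1f9 were at 0 UMIs in monocyte barcodes of both libraries. Mmp9 was at 480 CPM in young and 510 CPM in old neutrophils. G0s2, an inhibitor of triglyceride breakdown, was at 2966 and 4208 CPM against 13.2 and 19.4 CPM in monocyte barcodes. Hdc, which makes histamine, was at 603 and 633 CPM against 3.29 and 6.47 CPM. These levels differ between cells that were chosen on their own transcripts, and are given as a description.

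**Figure D1:**
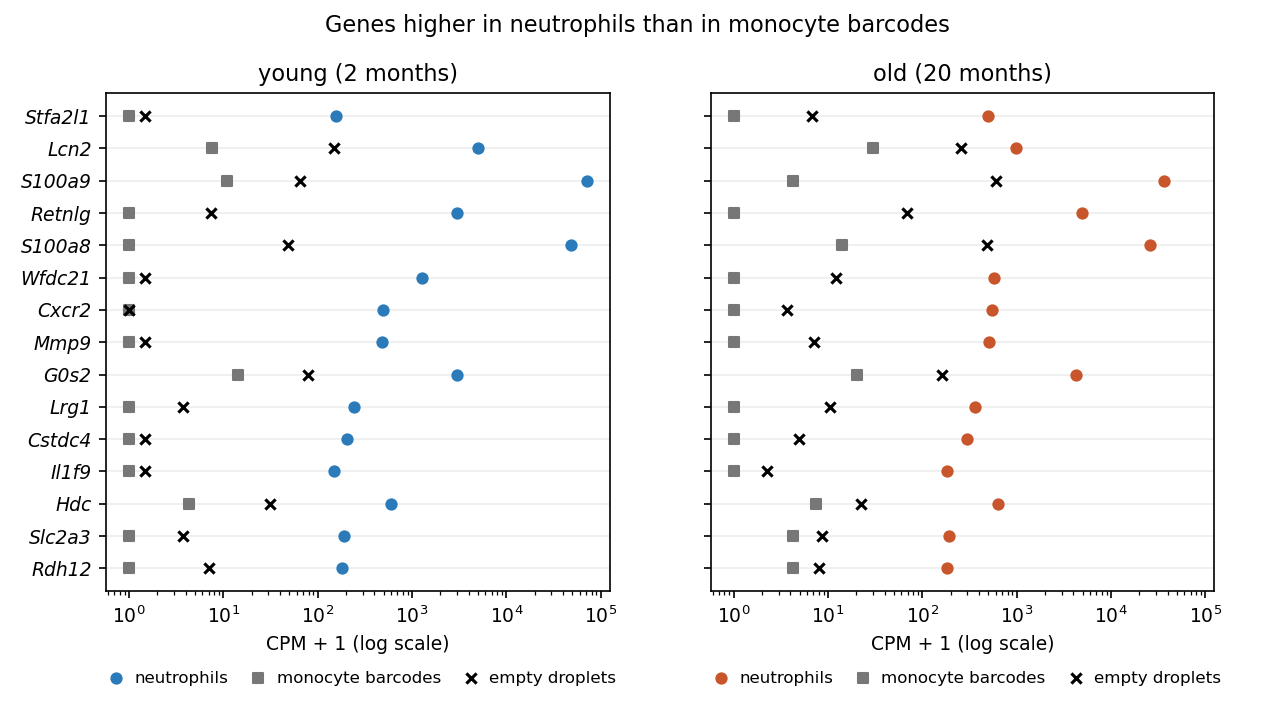
Levels of the 15 genes (CPM plus 1, log scale) in neutrophils (circles), monocyte barcodes (squares) and empty droplets (crosses) of the young library on the left and the old library on the right. Each gene was higher in neutrophils than in monocyte barcodes and in empty droplets of the same library, for example Cxcr2 at 486 and 548 CPM against 0 in monocyte barcodes.

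The S100 share that defined the cells varied widely from barcode to barcode. In young neutrophils it ran from 1.28% to 30.3% with a median of 5.73%, and in old ones from 1.42% to 17.4% with a median of 5.72%. The groups overlapped over most of their range, and the medians were alike. S100a8 and S100a9, whose proteins pair as calprotectin, went together across barcodes (Pearson's r of their percentages 0.964 over 29 young and 0.910 over 51 old barcodes, which share a library and a total and are given as a description). S100a9 had more UMIs than S100a8 in 28 of 29 young and 47 of 51 old neutrophils. Just inside the limit of 1%, the lowest young shares were 1.28%, 1.41% and 1.47% and the lowest old ones 1.42%, 1.64% and 1.97%. Just outside it, the highest shares were 0.435%, 0.249% and 0.0664% in the young and 0.962%, 0.874% and 0.776% in the old library. Between 0.2% and 1% lay 2 young and 81 old barcodes, so the edge of the group was sharp in the young library and less so in the old one.

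Neutrophils had a median below that of all kept barcodes in the young library and above it in the old one. UMIs per neutrophil ran from 2169 to 25786 (median 3257) in the young and from 2816 to 36859 (median 4506) in the old library, and detected genes had medians of 1157 and 1481. Over 10000 UMIs were held by 5 young and 9 old neutrophils, and these few barcodes gave 52.4% of young and 48.8% of old neutrophil UMIs. Sums over neutrophils therefore rest to a large part on them. Only 1 further barcode, an old one, met the S100 and C1q limits among the 5594 young and 16136 old barcodes from 1000 to under 2000 UMIs, and 0 did among the 61147 young and 21765 old barcodes from 500 to under 1000 UMIs.

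**Figure D2:**
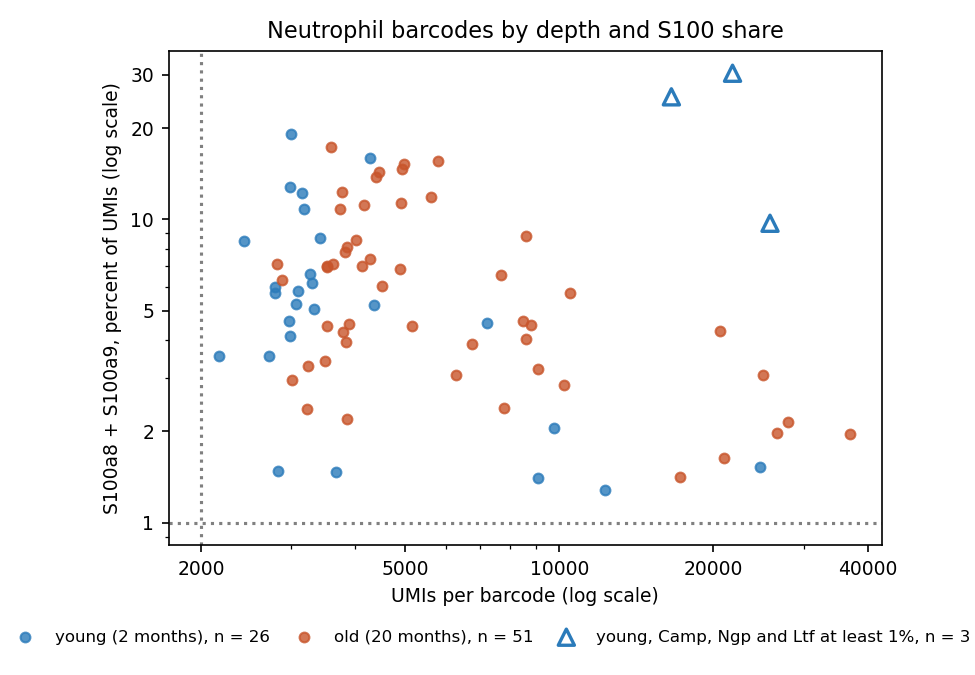
Each of the 80 neutrophils by its UMIs (x axis, log scale) and the percent of them from S100a8 and S100a9 (y axis, log scale), with the limits of 2000 UMIs and 1% dotted. Open triangles are the 3 young barcodes with Camp, Ngp and Ltf at 1% or more, which sit at 16554 to 25786 UMIs and 9.71% to 30.3%, above the other barcodes of over 10000 UMIs.

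Neutrophils took a larger share of the old library. Of kept barcodes they were 0.315% (0.211 to 0.452) in the young and 0.521% (0.388 to 0.685) in the old library, a ratio of 1.66 (1.03 to 2.71). Among leukocyte barcodes, those with at least 5 UMIs of the 6 pan-leukocyte genes, the shares were 2.41% (29 of 1202) and 5.41% (51 of 942), a ratio of 2.24 (1.40 to 3.67). Over all kept barcodes the ratio was 0.894 with a minimum of 1000 UMIs and 3.64 with a minimum of 3000 UMIs. Neutrophils numbered 29 and 52 at 1000 UMIs, and 19 and 49 at 3000. Among leukocyte barcodes the ratio lay between 1.84 (0.972 to 3.57, with an S100 share of at least 5%) and 3.17 (with at least 3000 UMIs) over the alternatives run.

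In the young library, 3 of the 29 neutrophils carried the specific granule genes at high level, and 0 of the 51 old neutrophils did. These 3 barcodes held all 2424 Camp UMIs, all 2212 Ngp UMIs and all 492 Ltf UMIs of young neutrophils, and the other 26 young neutrophils held 0 of each. In barcode 1, Camp had 1334, Ngp 1056 and Ltf 257 UMIs. In barcode 2 the counts were 570, 824 and 155, and in barcode 3 they were 520, 332 and 80. The genes whose promoters are printed above therefore took 12.1%, 9.36% and 3.61% of the UMIs of the 3 barcodes. Old neutrophils had 0 UMIs of Camp, 2 of Ngp and 1 of Ltf, and the highest share in any of them was 0.0456%, so no neutrophil lay near the limit of 1% used to set the 3 apart. As a share of neutrophils this was 10.3% (2.19 to 27.4) in the young library, and 0 of 51 in the old library allows a share of up to 5.88% (3 counts). The upper Clopper-Pearson bound for it was 6.98%. The interval of the ratio, old over young, ran from 0 to 1.38 and holds 1. The group of 3 was defined after its values were seen.

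Other genes of the same stage were found in the same 3 barcodes. Chil3 (a chitinase-like protein) had 215, 79 and 49 UMIs in them, and 0 in the other young and in all old neutrophils. Lcn2 (lipocalin 2, which binds bacterial siderophores) had 449, 224 and 85 UMIs. Cebpe had 18, 9 and 3 UMIs, against 1 in the other 26 young and 1 in the 51 old neutrophils. Serpinb1a, an inhibitor of granule proteases, had 29, 13 and 2, and Fcnb (ficolin B) 29, 1 and 5, with 0 of each in the other young neutrophils. Of the azurophil list, which also holds Serpinb1a, Mpo was at 0 in all 3 and Elane at 1, 0 and 0 UMIs, while Hp (haptoglobin) was at 1007 CPM in the 3 barcodes and 620 CPM in the other young neutrophils. The 6 cycling genes, among them Mki67, had 16, 24 and 1 UMIs, and the histone gene Hist1h1b 56, 6 and 0. Transcripts of the cycling genes were thus found mainly in barcodes 1 and 2.

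Many transcripts of mature and activated neutrophils were at 0 or low in the 3 barcodes, but not all were missing. Il1b had 0 UMIs in all 3, against 1139 UMIs in the other 26 young neutrophils, which is 10860 CPM and at least 209-fold higher when the 3 are set at a floor of 3 UMIs over the group. Cxcl2 had 0 against 801 UMIs, Ccl6 0 against 212 and the cystine transporter gene Slc7a11 0 against 100. Retnlg had 2, 1 and 1 UMIs, against 481 in the others. Csf3r had 1, 1 and 0 UMIs and Cxcr2 had 2, 0 and 0. Other genes of mature cells were present in all 3, with Msrb1 at 8, 6 and 3 UMIs and G0s2 at 1, 7 and 3. Hdc had 9, 2 and 11 UMIs, which is 382 CPM against 725 CPM in the other 26. The nuclear RNA Malat1 took 0.303%, 0.308% and 0.326% of UMIs in the 3 barcodes, below the range of the other young neutrophils (1.01% to 7.04%) and of the old ones (0.959% to 9.40%). Of 631 genes with at least 30 UMIs over young neutrophils, 31 were at least 4-fold higher and 152 at least 4-fold lower in the 3 barcodes than in the other 26.

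The 3 barcodes were large, at 21789, 16554 and 25786 UMIs, and held 33.3% of all UMIs of young neutrophils. Hormone genes took 1.28% and 2.01% of UMIs in barcodes 1 and 2, and 17.3% in barcode 3, which also held all 31 UMIs of the endocrine granule gene Chga among the 3. Outside neutrophils, 46 of 9181 young and 561 of 9732 old kept barcodes had a UMI of Camp, Ngp or Ltf, with at most 1 and 2 UMIs in any of them. Empty droplets held 36 such UMIs (16.6 CPM) in the young and 831 (50.8 CPM) in the old library, so free RNA of both libraries held the transcripts, while no kept barcode of the old library had 5 UMIs of them.

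**Figure D3:**
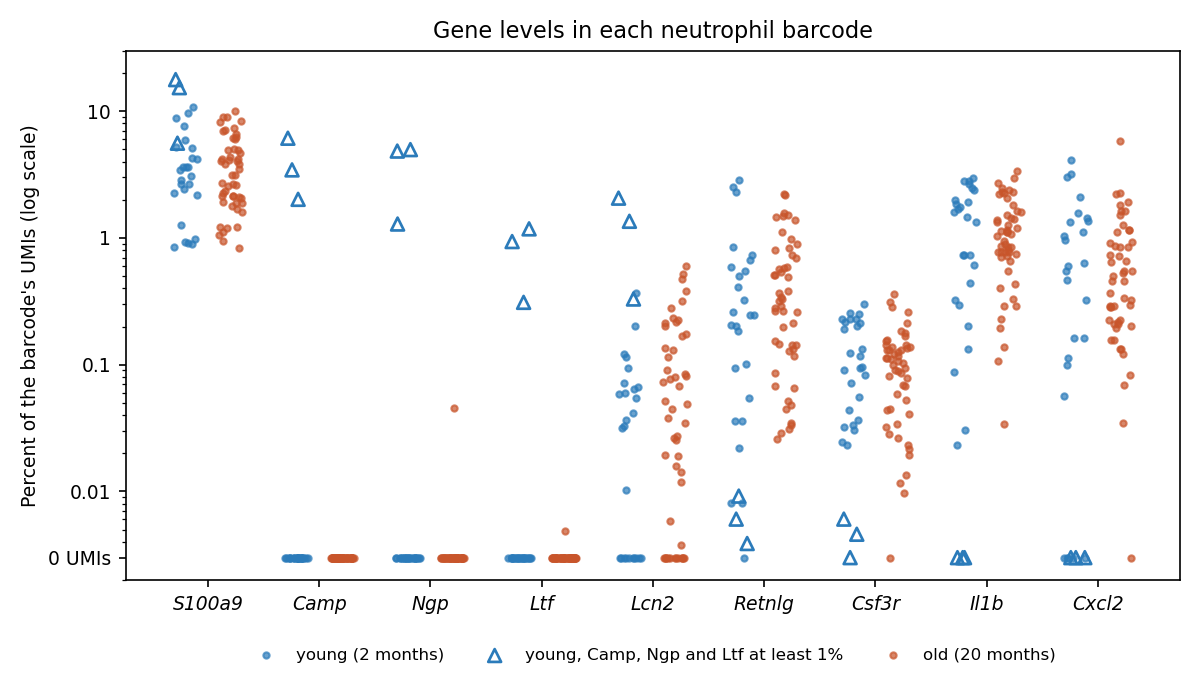
Percent of each neutrophil's UMIs (y axis, log scale, with 0 UMIs drawn at the bottom) for 9 genes in young (blue) and old (orange) barcodes. Triangles are the 3 young barcodes with Camp, Ngp and Ltf, which are at 0 UMIs of Il1b and Cxcl2, while the other young and the old neutrophils overlap for S100a9, Lcn2, Retnlg, Csf3r, Il1b and Cxcl2.

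Across all genes, old and young neutrophils were compared by the ratio of their CPM. Of 2482 genes with at least 30 UMIs over both libraries, 197 (7.94%) were at least 2-fold higher and 108 (4.35%) at least 2-fold lower in old neutrophils, with a median log2 ratio of 0.14. Scaled to all UMIs the counts were 143 and 127, and scaled without S100a8 and S100a9 they were 148 and 126. Without the 3 granule-transcript barcodes, 143 of 2208 genes (6.48%) were higher and 72 (3.26%) lower, with a median of 0.02. Of the 197 higher genes, 104 were still 2-fold higher without those 3 barcodes, and of the 108 lower genes 54 were still 2-fold lower. List medians and most named genes are therefore given with and without them.

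Genes lower in old neutrophils were led by those of the specific granules. Of 14 measured genes of that list, 11 were at least 2-fold lower and 0 higher, against 4.35% lower of all measured genes, with a median log2 ratio of -2.66. Camp, Ngp, Ltf and Chil3 passed the limit of 30 UMIs only through the 3 granule-transcript barcodes, so they could only be lower. The count is therefore a description. Camp was at 14918 CPM in young and 0 in old neutrophils, at least 1570-fold lower with the old sum set at 3 UMIs. Ngp was at 13613 and 6.33 CPM, Ltf at 3028 and 3.17 CPM, and Chil3 at 2111 and 0 CPM. Without the 3 barcodes all 4 were at 0 in young neutrophils too, and the list's median was -0.06. The 2 genes counted as lower were then Camp and Chil3, at 0 UMIs in both libraries. That call came only from the 0.5 UMI added to sums of unequal totals. The median counts these genes too, with Ngp and Ltf at 2 and 1 old UMIs, so it partly rests on sums under the precision limit. Lcn2 changed sides, from 5016 and 982 CPM (5.11-fold lower, 4.48 to 5.84) with all neutrophils to 543 and 982 CPM without the 3 barcodes (1.81-fold higher in old, 1.36 to 2.44). Wfdc21 did so too, with a log2 ratio of -1.16 and then 0.68.

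The remaining leading lower genes were Hist1h1b, Hist1h1e, Cybb, Ifitm6, Anxa1, Lyz2 and Ifi27l2a. Cybb, the catalytic subunit of the NADPH oxidase that makes superoxide, had 112 young and 13 old UMIs, and 106 of the 112 lay in the 3 barcodes. Anxa1 (annexin A1, which dampens inflammation) was at 812 and 212 CPM, and at 362 CPM in the other 26 young neutrophils. Lysozyme, Lyz2, was at 4130 and 1134 CPM, and at 1802 CPM in the other young neutrophils, while monocyte barcodes held 20347 and 17161 CPM. Ifi27l2a, an interferon-induced gene, was unlike these, since all of its 50 young UMIs lay outside the 3 barcodes. It was at 308 CPM in young and 88.7 CPM in old neutrophils, with a log2 ratio of -1.78 and of -2.42 without the 3. Zfp36l2, which promotes mRNA decay, was at 332 and 139 CPM with 0 UMIs in the 3 barcodes, and had log2 ratios of -1.25 and -1.88. The antiviral gene Oasl2 was lower in the same way, with 17 and 14 UMIs and log2 ratios of -1.23 and -1.86.

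Genes higher in old neutrophils were led by Cxcl3, Zcchc7, Birc3, Fndc3a, Asprv1, Stfa2l1, Gadd45b, Sbno2, Kcnq1ot1, Huwe1, Ifitm1 and Ahnak. Birc3, an inhibitor of apoptosis induced by NF-kappaB, had 6 UMIs in 3 of 29 young and 60 UMIs in 29 of 51 old neutrophils, with at most 4 in any barcode. That is 36.9 and 190 CPM, 5.15-fold higher (2.23 to 14.6), and 3.32-fold (1.44 to 9.41) without the 3 barcodes. Stfa2l1 was at 154 and 497 CPM, 3.23-fold higher (2.11 to 5.15) with all and 2.09-fold (1.36 to 3.32) without the 3, and was found in 7 young and 24 old neutrophils. Gadd45b, a stress-response gene, was at 332 and 1058 CPM, 3.18-fold (2.38 to 4.33) and 2.18-fold (1.62 to 2.98) higher, and was found in 11 young and 39 old neutrophils. These 3 genes were spread over many old barcodes and were at least 2-fold higher also without the 3 young ones. Empty droplets held Gadd45b at 292 CPM in the young and 275 CPM in the old library, close to its level in young neutrophils.

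Other leading genes leaned on 1 old barcode. The chemokine gene Cxcl3 had 0 young and 51 old UMIs, at least 8.75-fold higher with the young sum set at 3 UMIs, but 33 of the 51 lay in 1 of the 10 old barcodes that held any. Ifitm1, an interferon-induced membrane protein gene, was at 369 and 953 CPM, with 98 of 301 old UMIs in 1 barcode, and the old level without it was 643 CPM. Its ratio was 2.58 with and 1.67 without the 3 young barcodes. The aspartic protease gene Asprv1 was at 142 and 488 CPM, with 52 of 154 old UMIs in 1 barcode and an old level of 323 CPM without it. Ahnak had 39 of 61 old UMIs in 1 barcode, and was at 193 CPM with and 69.7 CPM without it, against 73.9 CPM in young neutrophils. Fndc3a, Zcchc7, Kcnq1ot1 and Huwe1 were above 50 CPM in empty droplets of both libraries.

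By role, most groups had medians between -0.50 and 0.50 with all neutrophils. Their medians were above 0 for 15 of 20 lists, and 11 of the 15 were below 0 without the 3 granule-transcript barcodes, so the sign of most lists changed with those 3. Only the lists of azurophil granules, aged or tissue neutrophils, interferon response and MHC genes had a median above 0 both ways. The azurophil list had only 3 measured genes of 10, which were Hp, Calr and Serpinb1a, so its median does not cover Mpo or Elane. Calr was at 105 CPM in young and 196 CPM in old neutrophils, below its 428 and 385 CPM in empty droplets. The cytokine and chemokine list (12 measured genes) had 4 genes higher and 0 lower, against 7.94% and 4.35% of all measured genes, with a median of 0.49. Without the 3 barcodes it had 2 higher and 2 lower, against 6.48% and 3.26%, with a median of -0.14. These same background shares stand beside each list that follows. Those without the 3 barcodes are of genes filtered anew, while list counts keep the genes measured in all neutrophils. A gene could also pass the limit of 30 UMIs through 1 library alone, so counts set against these shares are a description. In the cytokine and chemokine list Il1b was at 7010 CPM in young and 10016 CPM in old neutrophils, and at 10860 CPM in the other 26 young ones. Per barcode, Il1b took 0% to 2.98% of UMIs in young (median 0.737%) and 0.0338% to 3.35% in old neutrophils (median 1.03%), and the groups overlapped. The neutrophil attractant Cxcl2 was at 4930 and 6818 CPM, and at 7637 CPM in the other young ones. It was seen in 69.0% (49.2 to 84.7) of young and 96.1% (86.5 to 99.5) of old neutrophils after thinning, against 0.549% and 1.07% of lymphocyte barcodes, and in 72.4% and 98.0% without thinning (0.549% and 6.42% of lymphocyte barcodes). Of the 8 young neutrophils without a Cxcl2 UMI, 3 were the granule-transcript barcodes.

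The 4 higher genes of this list were Cxcl3, Il1rn, Wfdc17 and Ccl4. Il1rn, the antagonist of the interleukin 1 receptor, was at 129 and 269 CPM (2.08-fold, 1.28 to 3.54), and had a log2 ratio of 0.40 without the 3 barcodes. Wfdc17 was at 363 and 877 CPM (2.42-fold, 1.82 to 3.26), with a log2 ratio of 0.63 without the 3. Ccl4 had 6 and 40 UMIs, with 24 of the 40 in 1 barcode, and its old level of 127 CPM was below the 522 CPM of old empty droplets.

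Of 15 chemoattractant and growth factor receptor genes 1 was higher, a share near the background of 7.94%, and 0 were lower. Medians were 0.24 and, without the 3 barcodes, -0.34 with 0 genes beyond 2-fold. The higher gene was C5ar1, the receptor for complement C5a, at 105 and 225 CPM (2.15-fold, and 1.39-fold without the 3). Cxcr2 had a ratio of 1.13 (0.859 to 1.49), Csf3r of 1.18 (0.954 to 1.47) and the decoy receptor Il1r2 of 1.18 (0.915 to 1.54), intervals that hold 1 and lie under 2-fold. Without the 3 barcodes, which held few UMIs of these receptors, the ratios were 0.746 (0.567 to 0.989), 0.774 (0.625 to 0.963) and 0.792 (0.610 to 1.04). The first and second intervals exclude 1, but cover only the counting error of pooled UMIs. Per barcode without the 3, median shares of UMIs in young and old neutrophils were 0.0747% and 0.0572% for Cxcr2, and 0.106% and 0.104% for Csf3r. The 12 adhesion genes had 0 beyond 2-fold either way with or without the 3 barcodes (medians 0.13 and -0.08). Of 16 genes of mature blood neutrophils 1 was higher (Stfa2l1) and 0 were lower both ways, with medians of 0.33 and -0.15. Of 9 genes of aged or tissue neutrophils 3 were higher (Cxcl3, Ccl4 and Hilpda) and 0 lower, with a median of 0.44, and without the 3 barcodes 2 were higher and 1 lower, with a median of 0.20. The chemokine receptor Cxcr4, which marks ageing neutrophils on their way back to the marrow, was at 185 and 196 CPM, with log2 ratios of 0.08 and -0.46 without the 3. Of 19 pattern recognition and Fc receptor genes 3 were higher and 2 lower, and 1 and 0 without the 3 barcodes. Among them were Cd14 at 252 and 519 CPM (2.06-fold, and 1.43-fold without the 3) and Clec4a2, whose log2 ratio was -1.36 with and 0.19 without the 3 barcodes.

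The NADPH oxidase and oxidative defence list had 0 of 14 genes higher and 2 lower, Cybb and Hmox1, with a median of -0.38, and 0 and 1 without the 3 barcodes, with a median of -0.30. In the survival list 1 of 12 was higher, Gadd45b, and 0 were lower both ways, with medians of 0.46 and -0.10. Mcl1, which neutrophils need to stay alive, was at 1188 and 1786 CPM, and at 1754 CPM in the other young neutrophils. Of 23 transcription factor genes 0 were higher and 2 lower both ways, with medians of 0.20 and -0.26, and Cebpe and Zfp36l2 were the lower ones. Without the 3 barcodes Cebpe had 1 young and 1 old UMI, under the precision limit of 3 UMIs, so its call is not resolved. Of 20 immediate early genes 0 were beyond 2-fold both ways (medians 0.21 and -0.21), with Fos at 4185 and 4370 CPM, levels close to those of empty droplets (5050 and 4111 CPM). Interferon response genes had 1 of 11 higher, Ifitm1, and 1 lower, Oasl2, with a median of 0.63, and 0 higher and 2 lower without the 3 barcodes, with a median of 0.01. Glycolysis and hypoxia genes had 2 of 16 higher and 1 lower, Gpi1, and 0 either way without the 3 (medians -0.12 and -0.31). Of 14 glucocorticoid response genes 1 was higher, Ddit4, and 1 lower, Anxa1, and 0 either way without the 3 (medians 0.16 and -0.30). Of 10 S100 and alarmin genes 0 were higher and 1 lower, and of 19 actin cytoskeleton genes 0 and 1, and without the 3 barcodes 0 were beyond 2-fold in either list. Of 12 heat shock genes 0 were beyond 2-fold, and without the 3 barcodes 1 was higher and 1 lower.

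MHC genes had the highest median of the 20 lists, 1.04, and 0.60 without the 3 barcodes, with 5 of 9 genes at least 2-fold higher, against 7.94% of all measured genes, and 0 lower. Without the 3, 4 were higher and 0 lower. Among the higher genes, Cd74 and H2-Aa passed the limit of 30 UMIs only through their old UMIs, so these counts are a description. Cd74, the class II invariant chain, had 8 UMIs in young and 106 in old neutrophils, of which 51 lay in 1 barcode. H2-Aa had 3 and 41 UMIs, with 25 in the same barcode. That barcode also held 10 UMIs of the lymphocyte genes and was the only neutrophil with over 2 of them. The 52 Asprv1 UMIs given above lay in it too. Cd74 and H2-Aa were both below their level in empty droplets, where Cd74 was at 791 CPM (young) and 2636 CPM (old). Over empty droplets the median of the MHC list was 1.06. The part of free RNA in the difference was not tested. With the profile of barcodes of 500 to 900 UMIs subtracted, Cd74 had a log2 ratio of -3.24. That value rests on at most 8 young UMIs, with subtracted counts set to no less than 0, and is not resolved. H2-D1, a class I gene seen in all 29 and all 51 neutrophils, was at 892 and 1336 CPM, and at 1306 CPM in the other 26 young ones.

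**Figure D4:**
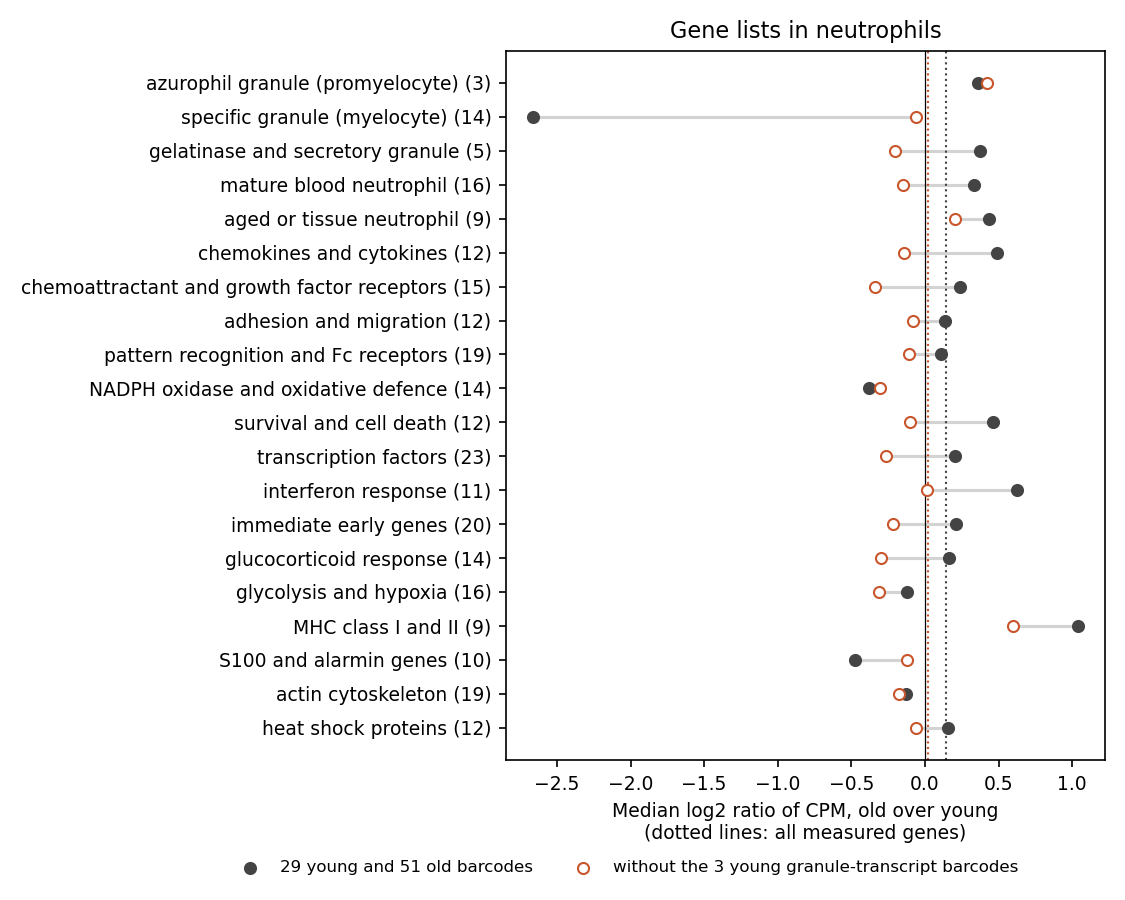
Median log2 ratio of CPM, old over young (x axis), for 20 gene lists, with the number of measured genes in brackets, over all neutrophils (filled) and without the 3 young granule-transcript barcodes (open). Dotted lines are the medians of all measured genes, 0.14 and 0.02. The list of specific granule genes moves from -2.66 to -0.06, and MHC genes are the farthest above 0 both ways. The value of -0.06 counts genes at or near 0 UMIs on both sides.

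Single barcodes also held most of the haemoglobin. Of the Hbb-bs UMIs, 813 of 834 in young and 2001 of 2057 in old neutrophils lay in 1 barcode of each library, where they took 3.30% and 23.3% of UMIs. Leaving out the 5 young and 9 old neutrophils of over 10000 UMIs, 53 of 1260 measured genes were at least 2-fold higher and 56 at least 2-fold lower in old neutrophils.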

How the data were processed

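The authors deposited unfiltered UMI counts, 1 matrix of genes by barcodes for each library. Per the submitters' processing notes these were made with Cell Ranger 6.0.2 on build GRCm39, and per the file headers the matrix format is that of Cell Ranger 4. Empty droplets and free RNA are still in the deposited counts. Members, gene lists and markers were chosen with earlier results of these data known. CPM, ratios with exact conditional Poisson intervals and Clopper-Pearson intervals were computed in Python 3.11.15 with numpy 2.4.6, scipy 1.17.1, pandas 2.3.3 and matplotlib 3.10.9, after the calculation was tested on simulated data. Log2 ratios had 0.5 UMI added to both sums. Named genes had at least 50 UMIs and 2 times the CPM of empty droplets in the library where they were higher, and a ratio of at least 2, without ribosomal protein, mitochondrial, haemoglobin, hormone or unnamed genes. The 12 highest and 12 lowest were named, with up to 4 genes per list, every list gene beyond 2-fold and the 15 genes highest over monocyte barcodes. Other genes were named after their values were seen: those of the 3 granule-transcript barcodes, Chga, Malat1 and Hbb-bs. At 3 UMIs the precision limit is 18.5 CPM in young and 9.50 CPM in old neutrophils. Scrublet, run in scanpy 1.11.5, called 0 young and 3 old barcodes automatically and is taken not to have worked, so doublets were kept, and removing the highest scores at 0.8% per 1000 barcodes was an alternative. Cells were not used as replicates, so no test was run.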

Additional observations from a re-analysis of the deposited data

Results flagged for a closer look

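Signals outside the compared neutrophils were found in 3 places. In the old library 5 kept barcodes had at least 1% S100a8 and S100a9 together with over 5 UMIs of C1qa, C1qb and C1qc (39 to 233 UMIs), and were left out by the C1q limit. The young library had 1 such barcode, with 60 C1q UMIs. Barcodes of at most 100 UMIs held 831 UMIs of Camp, Ngp and Ltf in the old library (50.8 CPM) and 36 in the young library (16.6 CPM).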

How the results depend on the processing

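No paired analysis was possible because each age had 1 library. Of 20 list medians, 0 changed sign under either other scaling. Where genes were filtered anew on the members left, which leaves 19 lists with 3 or more genes (the medians above keep the genes measured in all members), 7 did with members over 10000 UMIs left out, 7 with members thinned to 2000 UMIs and 11 with the granule-transcript barcodes left out. The last and the limit of 10000 UMIs were chosen after seeing the data. The share ratio over all kept barcodes was 0.894 at a minimum of 1000 UMIs, 3.64 at 3000 UMIs and 3.21 with hormone-rich barcodes left out of the total. Counts of genes at least 2-fold higher and lower were 197 and 108 of 2482 measured with the main settings. They were 30 and 23 of 652 after thinning, and 53 and 56 of 1260 without members over 10000 UMIs. With the profile of barcodes of at most 100 UMIs subtracted they were 304 and 221 of 1605. With that of 500 to 900 UMIs they were 302 and 221 of 1518. For genes of at least 10 UMIs they were 751 and 512 of 6393, and for those of at least 100 UMIs 27 and 21 of 635. Of log2 ratios beyond 2-fold with all members, those that changed sign were Ddit4 (-0.33 with no C1q limit, -1.55 thinned, -0.31 without members over 10000 UMIs), Wfdc21 (0.0070 as a mean over cells, 0.68 without the granule-transcript barcodes, 0.72 without members over 10000 UMIs), H2-K1 (-0.11 with barcodes of at most 100 UMIs subtracted), and Ccl4, Cd74 and H2-Aa (-3.06, -3.24 and -1.85 with those of 500 to 900 UMIs subtracted). Without the granule-transcript barcodes they were 0.73 for Ngp, 0.73 for Hist1h1b, 0.84 for Lcn2 and 0.19 for Clec4a2. Without members over 10000 UMIs they were 1.12 for Ngp, 1.36 for Lcn2, 0.38 for Serpinb1a, 0.38 for Cd177 and 0.019 for Clec4a2. Of these values, those of Ngp and Hist1h1b rest on 0 young and 2 old UMIs, and that of Serpinb1a on 0 and 1. These sums are under the precision limit of 3 UMIs, so their change of sign is not resolved. Subtracted counts were set to no less than 0. Ccl4, Cd74 and H2-Aa had only 6, 8 and 3 young UMIs before subtraction, so their change of sign is not resolved either. Other causes were not tested. With 29 and 51 barcodes, genes under about 30 UMIs were not compared at this depth.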

Other observations

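In monocyte barcodes of the same libraries, which had 0 UMIs of Camp, Ngp and Ltf at both ages, the list of MHC genes had a median log2 ratio of 0.26, old over young, and in macrophage barcodes 0.26. Chil3, which was at 0 in old neutrophils, was at 569 CPM in young and 534 CPM in old monocyte barcodes. The cytokine genes of neutrophils were also present in monocyte barcodes, with Il1b at 3047 and 3690 CPM and Cxcl2 at 4514 and 3706 CPM.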
